A study of Mus musculus with 3 samples.

Results

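The 45 genes of the interferon response and of class I antigen presentation described here were chosen by symbol from the 50600 gene identifiers counted in mouse T-helper 1 (Th1) cells, of which 21764 are protein-coding. They comprise 4 interferon regulatory factors, 23 antiviral effectors, 8 interferon-inducible GTPases and 10 class I presentation genes, and all 45 were found in the tables. RNA was sequenced from primary Th1 cells of strain C57BL/6NJ, CD4 T cells taken through a differentiation protocol, in 1 group of 3 biological replicates. There was no second condition, no interferon-treated sample and no other cell type, so levels were compared between genes within a library, with the variation among the 3 libraries as their error. The labels give the age as unknown and the sex as not collected, name no genotype, agent or dose, and tie all 3 biosamples to a single donor record. A tag of 16 hr stands in the headers of the files and is absent from the labels. Total RNA is the labelled assay and molecule, although the name of the linked library protocol refers to poly(A) RNA.

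Interferons are secreted proteins that signal to their receptors through JAK kinases and STAT transcription factors. Type I interferons act mainly through a complex containing IRF9 that binds the interferon-stimulated response element, while interferon gamma, the hallmark cytokine of Th1 cells, acts mainly through the gamma-activated site. Their targets include proteins that block viral replication, GTPases that attack the vacuoles of intracellular microbes, and the immunoproteasome, peptide transporter and heavy chains that bring peptides to the cell surface on class I molecules.

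The counts summed to 4764598, 2568928 and 2815439 in replicates 1, 2 and 3, and the members took 0.197, 0.165 and 0.132% of them. The counting took 1 strand only, and which strand the library kit reads is not given in the sources used here. Whether the counted strand is that of the genes was not tested, and every level and every 0 below, of members and markers alike, is read on the counted strand. If the kit reads the other strand, such a level or 0 does not give the expression of the named gene. All 8 CD4 T cell markers were detected, with a summed level of 1610, 1210 and 801 TPM, where TPM is a count divided by gene length, scaled to the same total in each library. Only Cd3e among the 8 has exons that overlap exons of an opposite-strand gene, sharing 135 bases with Gm48719. In every library Gm48719 had more counts than Cd3e, which had 392, 191 and 157. Of 5 Th1 markers, Il12rb2 and Stat4 were detected, though Il12rb2 shares 1519 exon bases with Serbp1 on the other strand. Ifng had 1, 0 and 0 counts, Cxcr3 0, 0 and 1, and the defining regulator Tbx21 2, 10 and 2 (0.357, 3.15 and 0.506 TPM). On the counted strand, Ifng and Cxcr3 were thus at or near 0 and Tbx21 was low, above a TPM of 1 in replicate 2. Of the markers of other cells that could contribute these members, 0 of 6 for dendritic cells, 0 of 5 for B cells and 0 of 4 for NK cells were detected. The dendritic cell genes Siglech, Flt3, Clec9a and Itgax had 0 counts in every library. Xcr1 had 8, 21 and 3 counts and Zbtb46 7, 12 and 4, both above a TPM of 1 in replicate 2 only. The summed levels were 0.719 to 4.80 TPM for dendritic cells, 0 to 8.53 for B cells and 0.303 to 1.89 for NK cells. Almost all of the B cell sum lay on Cd79a, with 27, 0 and 17 counts. Of 7 macrophage markers 2 were detected, with a sum of 113 to 141 TPM that lay almost all on Csf1r, whose exons overlap Hmgxb3 on the other strand, and Adgre1, Itgam, Lyz2 and Cd14 were at 0. Of the CD8 pair Cd8a was at 0 counts and Cd8b1 had 97, 15 and 36. The sex-linked transcripts did not match between the libraries despite the shared donor record: Xist had 807, 1110 and 4 counts and the Y-linked Ddx3y 161, 0 and 81. In such bulk samples, fewer cells of a type and less RNA per cell cannot be told apart.

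Class I presentation was the most abundant arm, the interferon regulatory factors were low but present, and the antiviral effectors and GTPases split between readily counted genes and genes close to 0. Detection required a TPM of 1 or more in every library, and a gene below 1 in every library was taken as not detected. By that rule 27 of the 45 members (60%) were detected, 9 (20%) were not, and 9 lay on both sides. Over all protein-coding genes the shares were 39.8% detected and 51.1% not detected. All 10 class I genes and all 4 regulatory factors were detected, against 10 of 23 antiviral effectors and 3 of 8 GTPases. Without replicate 1, the deepest library, the number not detected was 14.

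The median level of the 10 class I genes was 30.1, 23.9 and 27.5 TPM in replicates 1, 2 and 3. The 4 regulatory factors had medians of 6.29, 2.77 and 4.29 TPM, and the 23 antiviral effectors 2.35, 1.41 and 0.848. The GTPases had medians of 2.44, 0.209 and 0.752 TPM. The class I medians lay above those of the other 3 classes without overlap, while the antiviral and GTPase medians overlapped and stood in a different order in replicate 1. On the log2(TPM + 1) scale the medians were 4.80 ± 0.17 (SD, n = 3) for class I, 2.37 ± 0.51 for the regulatory factors, 1.30 ± 0.43 for the antiviral effectors and 0.94 ± 0.78 for the GTPases. The same median over all protein-coding genes was 0.33 ± 0.29, and that of all members 2.30 ± 0.17.

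**Figure D1:**
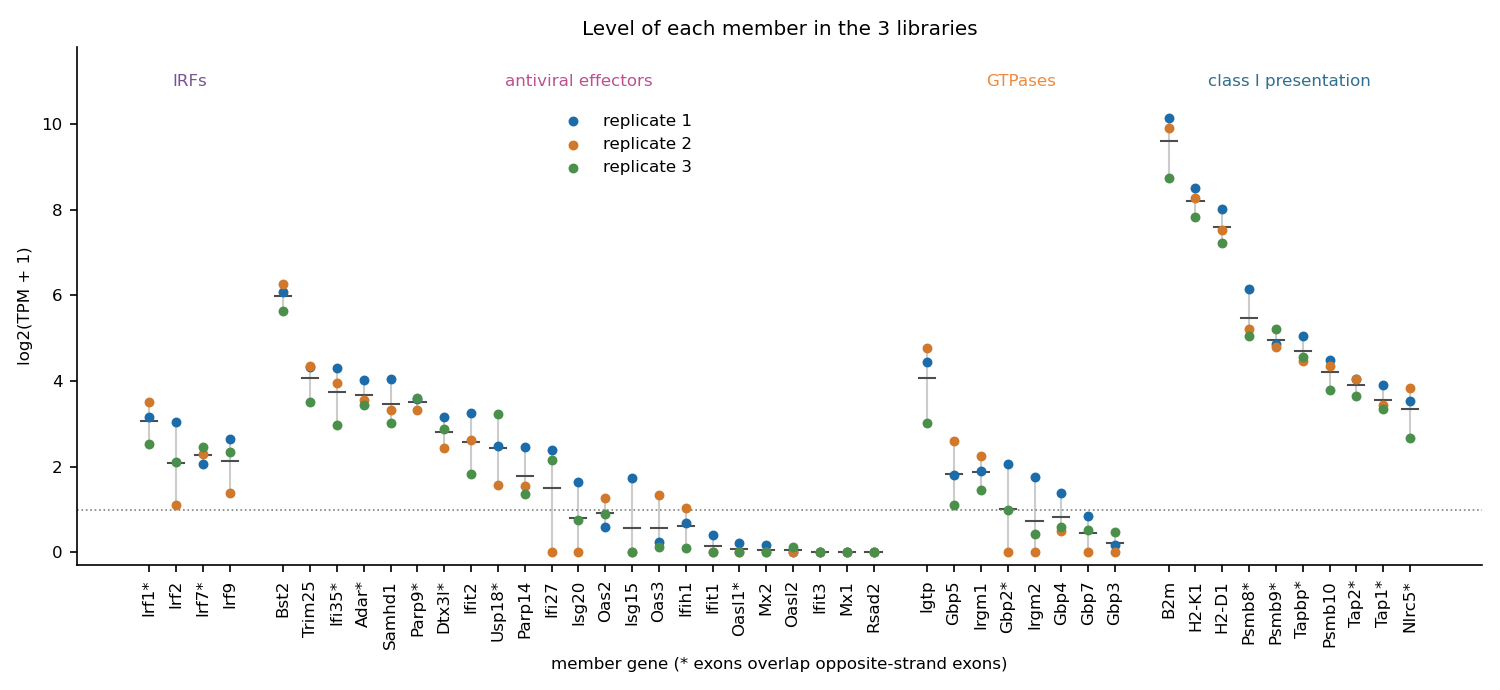
Level of each of the 45 members as log2(TPM + 1) in the 3 Th1 libraries. Points are libraries, horizontal ticks are means of the 3 values, grey bars span the range, the dotted line is a TPM of 1, and an asterisk marks exons that overlap opposite-strand exons. B2m, H2-K1 and H2-D1 stand highest, and Ifit3, Mx1 and Rsad2 lie at 0.

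B2m, the light chain shared by all class I molecules (ENSMUSG00000060802.8, chr2:122147686-122153083, plus strand, mm10), was the highest member, with 2193, 1050 and 587 counts and a level of 1131, 957 and 429 TPM. Only 79 protein-coding genes (0.363%) had a higher mean level than its 839 ± 365 TPM (SD, n = 3). Replicate 3 was below the other libraries. The classical heavy chain H2-K1 (ENSMUSG00000061232.15, chr17:33996017-34000333, minus strand) followed with 2140, 1032 and 934 counts, or 364, 310 and 225 TPM (299.8 ± 69.9, SD, n = 3). H2-D1, the other classical heavy chain of this strain (ENSMUSG00000073411.11, chr17:35262730-35267499, plus strand), had 1495, 601 and 611 counts, or 257, 183 and 149 TPM (196 ± 55.3, SD, n = 3). These 3 genes held 60.9% ± 3.08 (SD, n = 3) of all counts on members, and none of them has exons that overlap exons of an opposite-strand gene. The B2m exons do lie inside the body of Patl2 on the other strand. Class I heavy chains are near-identical in stretches and the headers record no option to count reads that map to several places, so their split is uncertain.

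B2m exceeded H2-K1 per base in every library, by log2 ratios of 1.64, 1.63 and 0.93 (1.40 ± 0.40, SD, n = 3). H2-K1 exceeded H2-D1 by log2 ratios of 0.50, 0.76 and 0.60 (0.62 ± 0.13, SD, n = 3). Both ratios kept 1 sign in 3 of 3 libraries. The 2-sided exact sign-flip permutation test over libraries gave p = 0.25 for each of the 8 gene pairs compared here, which is the smallest value that 3 libraries allow, and 0.25 after Benjamini-Hochberg adjustment over the 8 pairs.

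The 3 immunoproteasome subunits, which replace constitutive catalytic subunits after interferon exposure and in leukocytes, were all detected. Per base of exons, all 3 were lower than their constitutive counterparts. Psmb8 (the beta5i subunit, LMP7, chr17:34197721-34201454, plus strand) had 435, 126 and 141 counts, or 70.5, 36.1 and 32.4 TPM (46.3 ± 21.0, SD, n = 3), against 79.8 ± 29.7 for Psmb5. Psmb9 (beta1i, LMP2, chr17:34181988-34187764, minus strand) had 232, 124 and 210 counts, or 28.1, 26.6 and 36.1 TPM (30.3 ± 5.11, SD, n = 3), against 101 ± 39.4 for Psmb6. Psmb10 (beta2i, MECL-1, chr8:105935735-105938444, minus strand) had 83, 42 and 35 counts, or 21.6, 19.3 and 12.9 TPM (17.9 ± 4.50, SD, n = 3), against 38.4 ± 17.2 for Psmb7. Per base, every subunit thus stood below its counterpart in each library, an order that rests on the gene lengths. By counts alone, Psmb8 was above Psmb5 (224, 71 and 85 counts) in every library. Psmb9 was above Psmb6 (605, 227 and 194 counts) in replicate 3 only. The log2 ratios per base were -0.70, -0.83 and -0.92 for Psmb8 to Psmb5 (-0.82 ± 0.12, SD, n = 3). For Psmb9 to Psmb6 they were -2.35, -1.84 and -0.85 (-1.68 ± 0.76, SD, n = 3), and for Psmb10 to Psmb7 -1.41, -0.77 and -0.90 (-1.02 ± 0.34, SD, n = 3). The Psmb9 to Psmb6 ratio spread most, with Psmb9 highest and Psmb6 lowest in replicate 3. Psmb8 and Psmb9 share exon sequence with opposite-strand genes, as does Psmb7 with Nek6 over 405 bases, whereas Psmb5, Psmb6 and Psmb10 do not. All 1705 exon bases of Psmb10 do lie inside the body of a gene on the other strand.

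**Figure D2:**
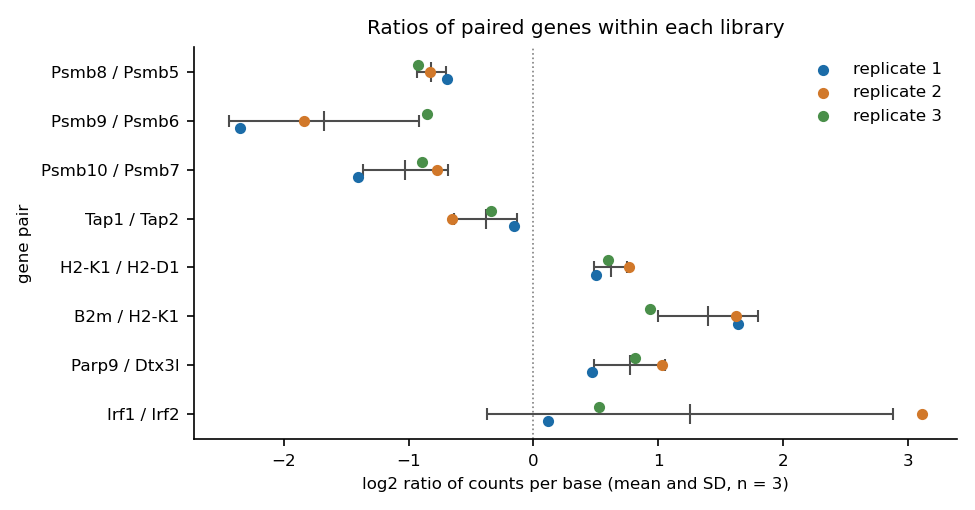
Log2 ratio of counts per base between the 2 genes of each of 8 pairs, by library. Points are libraries, the tick and bar give the mean and SD of 3 values, and the dotted line marks equal levels. The immunoproteasome ratios and Tap1 to Tap2 lie below 0 in every library, and the Irf1 to Irf2 ratio of 3.11 in replicate 2 stands apart from 0.12 and 0.52.

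The peptide transporter and its partners were present at moderate levels. Tap1, a subunit of the transporter that moves peptides into the endoplasmic reticulum (chr17:34187553-34197225, plus strand), had 13.9, 9.88 and 9.19 TPM from 172, 69 and 80 counts. Its partner Tap2 had 15.5, 15.6 and 11.6 TPM from 132, 75 and 70 counts. Tap1 was lower than Tap2 in each library, with log2 ratios of -0.15, -0.65 and -0.34 (-0.38 ± 0.25, SD, n = 3), of which that of replicate 1 is small. Tapbp, or tapasin, which bridges the transporter and empty class I molecules, had 25.3 ± 6.00 TPM (SD, n = 3) from 239, 89 and 118 counts. Nlrc5, the transactivator of class I genes, was the lowest of the 10 at 9.78 ± 4.04 TPM (SD, n = 3) from 202, 145 and 73 counts. Every class I gene of the list except B2m, Psmb10 and Nlrc5 lies on chromosome 17. Tap1 and Psmb9 are transcribed away from each other there, and their RefSeq promoter windows share 275 bases.

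The interferon regulatory factors, transcription factors that bind interferon-stimulated response elements and related sites, were each counted in every library. Irf1, an activator induced by interferon gamma, had 71, 53 and 30 counts, or 7.92, 10.4 and 4.75 TPM (7.71 ± 2.86, SD, n = 3). Irf2, which competes with it for the same sites, had 122, 11 and 39 counts, or 7.32, 1.17 and 3.32 TPM (3.93 ± 3.12, SD, n = 3). Irf1 was above Irf2 in each library, with log2 ratios of 0.12, 3.11 and 0.52. The mean ratio of 1.25 ± 1.63 (SD, n = 3) rested on replicate 2, without which it was 0.32. Irf7, which amplifies type I interferon production, had 27, 19 and 27 counts (3.87 ± 0.666 TPM, SD, n = 3). Irf9, the DNA-binding subunit of the complex that type I interferons activate, had 64, 11 and 35 counts (3.65 ± 1.87 TPM, SD, n = 3), and shares 123 exon bases with Rnf31 on its own strand. The means of Irf2, Irf7 and Irf9 lay within 1 SD of each other.

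Among the antiviral effectors, Bst2, or tetherin, which holds budding virions at the cell surface, was far above the rest, with 136, 87 and 70 counts and 66.8, 75.5 and 48.8 TPM (chr8:71534255-71537456, minus strand). Trim25, a ubiquitin ligase of the RIG-I pathway, followed with 249, 142 and 95 counts, or 19.2, 19.3 and 10.4 TPM (16.3 ± 5.13, SD, n = 3). Ifi35 had 18.7, 14.5 and 6.92 TPM (13.4 ± 5.99, SD, n = 3). Bst2 exceeded these genes in each library without overlap, whereas the Trim25 and Ifi35 values overlapped. Adar, the RNA-editing enzyme that keeps cellular double-stranded RNA from triggering sensors, had 278, 112 and 127 counts (11.9 ± 2.85 TPM, SD, n = 3). Samhd1, the dNTP hydrolase that restricts retroviruses, had 323, 105 and 103 counts (10.6 ± 4.50 TPM, SD, n = 3). The ADP-ribosyltransferase family genes Parp9 and Parp14 had 10.4 ± 1.20 and 2.66 ± 1.59 TPM (SD, n = 3), from 120, 56 and 87 and from 94, 23 and 23 counts. Dtx3l, the ubiquitin ligase that pairs with PARP9, had 102, 32 and 58 counts (6.22 ± 1.77 TPM, SD, n = 3). Parp9 stood above Dtx3l in each library, by log2 ratios of 0.47, 1.03 and 0.81 (0.77 ± 0.28, SD, n = 3). Ifit2, which binds foreign RNA, had 76, 26 and 16 counts, or 8.58, 5.19 and 2.56 TPM (5.45 ± 3.02, SD, n = 3). Usp18, the protease that removes ISG15 and dampens interferon receptor signalling, had 29, 7 and 37 counts, or 4.61, 1.97 and 8.34 TPM (4.97 ± 3.20, SD, n = 3). The library with the highest value differed between these last 2 genes, replicate 1 for Ifit2 and replicate 3 for Usp18.

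Other antiviral effectors were near the counting limit. Ifit3, Mx1 and Rsad2 (viperin, a radical enzyme that makes a chain-terminating nucleotide) had 0 counts in every library. Taking 0 counts to allow up to 3, their levels could have been up to 1.35, 0.645 and 0.543 TPM in the library with the highest limit. Isg15, the ubiquitin-like modifier, had 4, 0 and 0 counts, and its short exons leave a wide limit of up to 3.11 TPM. Ifit1, which binds capped RNA lacking a host methyl mark, had 2, 0 and 0 counts. The Mx gene Mx2, annotated as a polymorphic pseudogene, had 1, 0 and 0, and the oligoadenylate synthetase-like genes Oasl1 and Oasl2 had 1, 0 and 0 and 0, 0 and 1. In all, 11 of the 45 members had fewer than 10 counts in every library, a share that was not computed over all protein-coding genes. By TPM, 20% of members were not detected, against 51.1% of protein-coding genes. The synthetases that make the activator of RNase L were higher but still few, with 5, 8 and 6 counts for Oas2 and 3, 14 and 1 for Oas3. The RNA sensor Ifih1, or MDA5, had 11, 11 and 1 counts, the exonuclease Isg20 9, 0 and 2, and Ifi27 14, 0 and 8. None of these 5 genes was on 1 side of a TPM of 1 in all libraries.

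The GTPases were led by Igtp (Irgm3), an immunity-related GTPase of the endoplasmic reticulum (chr11:58199556-58207591, plus strand), with 94, 68 and 23 counts and 20.6, 26.4 and 7.15 TPM (18.0 ± 9.86, SD, n = 3). Gbp5, a guanylate-binding protein that promotes inflammasome assembly, had 37, 43 and 12 counts, or 2.47, 5.08 and 1.14 TPM (2.90 ± 2.00, SD, n = 3). Irgm1, which regulates other members of its family, had 36, 28 and 16 counts (2.75 ± 1.02 TPM, SD, n = 3). Igtp lay above both in every library, and all 3 genes were lowest in replicate 3 and highest in replicate 2. The other 5 GTPases were at or near the counting limit in replicate 2, with 4 counts for Gbp4 and 0 for Gbp2, Gbp3, Gbp7 and Irgm2. Gbp4 had 27, 4 and 6 counts, Gbp2 18, 0 and 4, and Irgm2 20, 0 and 2. Gbp7 had 10, 0 and 4 counts and Gbp3 1, 0 and 2, both below a TPM of 1 in every library. Igtp and Irgm2 share 162 exon bases on the same strand of chromosome 11. Gbp7 shares 637 exon bases with Gm43802 on its own strand, and Gbp4 up to 61 with Gbp8 and Gbp9. A read pair that meets both genes of such an overlap is assigned to neither unless an option allows it, and the headers record none. The guanylate-binding proteins are close paralogs, so their counts are likewise uncertain.

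Among the protein-coding genes, 7.28% had 0 counts in replicate 2 with counts in both other libraries, and 6 of the 45 members did. They were Isg20, Ifi27, Gbp2, Gbp3, Gbp7 and Irgm2. No member was at 0 in replicate 1 alone or in replicate 3 alone. Of protein-coding genes, 1585 were at 0 in replicate 2 alone, 97 in replicate 3 alone and 48 in replicate 1 alone. Replicate 2 has the fewest counts in all, and replicate 3 the fewest on protein-coding genes (1918449, against 1986666 in replicate 2). The part of depth in these zeros was not tested.

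Promoter sequence was then compared with these levels. The members were chosen by name as interferon-response and class I genes, many of which are known for the response element, and no sequence was used to choose them. RefSeq windows on GRCm38.p6, from 250 bases before to 50 after the start, were matched for 35 of the 45 members. The interferon-stimulated response element was searched as GAAANNGAAA and the gamma-activated site as TTCNNNGAA, on both strands, and the patterns can overlap each other. A response element match was found in 16 of the 35 members, against 3.99% of the 27025 genes in the promoter table. A gamma-activated site match was found in 13 of 35, against 9.55%, and 6 members had both. The response element matched in 7 of 7 GTPases, 7 of 16 antiviral effectors, 1 of 4 regulatory factors (Irf2) and 1 of 8 class I genes (B2m). Such a match is a description of the letters and shows no binding.

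Windows of 60 bases are shown for the genes that span the range of levels, from Rsad2 at 0 counts to B2m, with the response element matches in capitals, 5′ to 3′ along the gene. In Bst2, Igtp and Irgm2 the capitals also mark a gamma-activated site match, which overlaps the response element by 3 bases in Bst2 and lies before it in Igtp and Irgm2.
Rsad2 (chr12:26456533-26456592, minus strand, 0 counts): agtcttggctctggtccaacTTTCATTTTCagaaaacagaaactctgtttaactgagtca
Ifit1 (chr19:34640765-34640824, plus strand, 0.111 TPM): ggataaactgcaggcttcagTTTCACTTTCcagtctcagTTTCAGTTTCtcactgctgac
Gbp3 (chr3:142559979-142560038, plus strand, 0.174 TPM): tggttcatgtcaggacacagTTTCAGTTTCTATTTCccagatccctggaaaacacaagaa
Isg15 (chr4:156200857-156200916, minus strand, 0.782 TPM): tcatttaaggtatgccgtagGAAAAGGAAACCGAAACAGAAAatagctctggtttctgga
Irgm2 (chr11:58214893-58214952, plus strand, 0.915 TPM): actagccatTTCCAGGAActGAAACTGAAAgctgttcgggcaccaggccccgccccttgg
Igtp (chr11:58199496-58199555, plus strand, 18.0 TPM): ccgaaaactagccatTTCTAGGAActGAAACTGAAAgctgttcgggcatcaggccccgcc
Bst2 (chr8:71537563-71537622, minus strand, 63.7 TPM): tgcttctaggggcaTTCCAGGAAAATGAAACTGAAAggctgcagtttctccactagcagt
B2m (chr2:122147528-122147587, plus strand, 839 TPM): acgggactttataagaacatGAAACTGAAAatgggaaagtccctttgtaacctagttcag

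The same 10 letters, GAAACTGAAA, were the match in Igtp, Irgm2 and B2m, whose mean levels were 18.0, 0.915 and 839 TPM. Ifit1 and Ifit3 also shared both of their matches, TTTCACTTTC and TTTCAGTTTC, and the first of these was the match in Gbp2 as well. In Igtp and Irgm2 the gamma-activated site match ended 2 bases before the response element. Their sequences upstream of the start also shared an unbroken run of 55 bases, which does not hold the response element match. The longest match, 22 bases in Isg15, belonged to a gene with 4 counts in all. The 16 members with a match had a median mean level of 0.849 TPM, and the 19 without had 11.0. The classes differed in this. With and without a match the medians were 0.577 and 6.22 TPM for antiviral effectors. They were 3.93 (Irf2 alone) and 3.87 for regulatory factors, and 839 (B2m alone) and 30.3 for class I. All 7 GTPases with a window had a match. By detection, a match was present in 6 of 22 detected members, 5 of 6 with values on both sides of the limit, and 5 of 7 not detected.

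**Figure D3:**
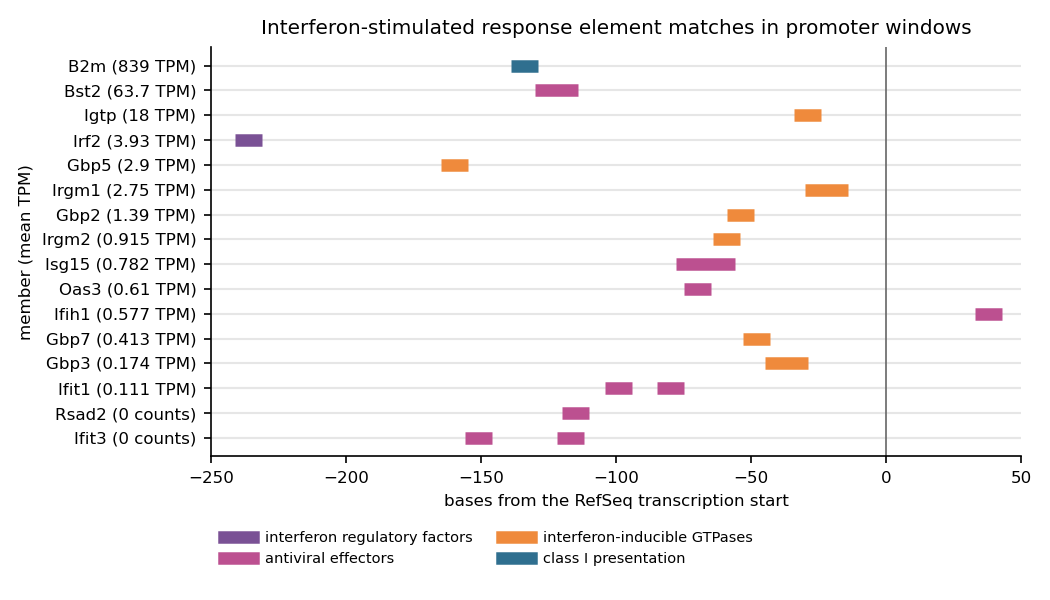
Position of each interferon-stimulated response element match relative to the RefSeq transcription start (0), for the 16 members with a match, ordered by mean TPM from the lowest at the bottom. Colored blocks are merged matches by member class, and grey lines span the window searched. Of 18 blocks 17 lie upstream, from 241 to 15 bases before the start, and only that of Ifih1 lies after it.

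Exons of 15 of the 45 members (33%) overlap exons of a gene on the opposite strand, as do those of 22.1% of protein-coding genes. They are Irf1, Irf7, Ifi35, Oasl1, Usp18, Parp9, Dtx3l, Adar, Gbp2, Tap1, Tap2, Tapbp, Psmb8, Psmb9 and Nlrc5. Of these 15, 13 were detected, against 14 of the 30 members without such overlap. Among protein-coding genes the detected shares were 62.3% with and 33.5% without opposite-strand exons, so detection was more frequent with overlap in both sets. For these 15 genes and their partners, the order of the 2 genes rests on the counted strand and could turn round if the kit reads the other one. For 14 of the 15 members, the member and its opposite gene had 30 counts or more between them. The opposite gene had more counts per kilobase of exons in every library for 9 of the 14. Parp9 with Dtx3l and Tap1 with Psmb9 are each entered for both of their genes, so the 14 are not all separate pairs. Among the 3547 protein-coding genes passing the same filter that share was 55.2%, also taken gene by gene. In 2 of the 9 the opposite gene was itself a member, Parp9 opposite Dtx3l over 458 bases and Psmb9 opposite Tap1 over 212.

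In the class II and class I region of chromosome 17, Gm20496, an antisense gene that overlaps Psmb8 by 186 bases and Tap2 by 165, held 5489, 2821 and 4560 counts. Per kilobase this was 52.1, 92.4 and 133 times the Psmb8 value in replicates 1, 2 and 3. Gm15821, which overlaps Tap2 by 533 bases, held 1601, 821 and 1466 counts, or 37.9, 34.2 and 65.4 times Tap2. On the counted strand both antisense genes thus stood far above the members they overlap, most so in replicate 3. Opposite Tapbp, Gm19412 (665 bases, 77.0% of its exons) held 794, 208 and 690 counts, or 12.7, 8.92 and 22.3 times Tapbp. Opposite Ifi35, Gm11626 (290 bases, 87.1% of its exons) held 635, 380 and 549 counts against 73, 32 and 19, a ratio of 45.1, 61.6 and 149.9 per kilobase. Opposite Irf1, Gm17334 (135 bases) held 220, 63 and 179 counts, or 13.6, 5.21 and 26.2 times Irf1. Chrnb2, which encodes a neuronal acetylcholine receptor subunit and overlaps Adar by 1365 bases, held 1506, 707 and 1452 counts, or 5.25, 6.12 and 11.1 times Adar. In 7 of the 9 pairs the ratio was largest in replicate 3, the exceptions being Irf7 with Phrf1 and Dtx3l with Parp9. How often this holds among opposite-strand pairs in general was not computed. Protein-coding genes took 68.1% of the counts in replicate 3, against 79.9 and 77.3% in replicates 1 and 2. Whether this library-wide difference accounts for the larger ratios was not tested.

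The remaining pairs were smaller. Phrf1 overlaps Irf7 by 45 bases and held 524, 235 and 226 counts. Gm44148 overlaps Usp18 by 124 bases and held 8, 0 and 6 counts, which per kilobase was 2.44 and 1.43 times Usp18 in replicates 1 and 3. Per kilobase Nlrc5 was above 9330175E14Rik, which overlaps it by 78 bases, in replicates 1 and 2 and below it in replicate 3, where the counts were 73 and 65. Mir6381 overlaps Gbp2 by 24 bases and had 24, 0 and 28 counts against 18, 0 and 4. Gm13822, which overlaps Oasl1 by 38 bases, had 0 counts in every library.

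**Figure D4:**
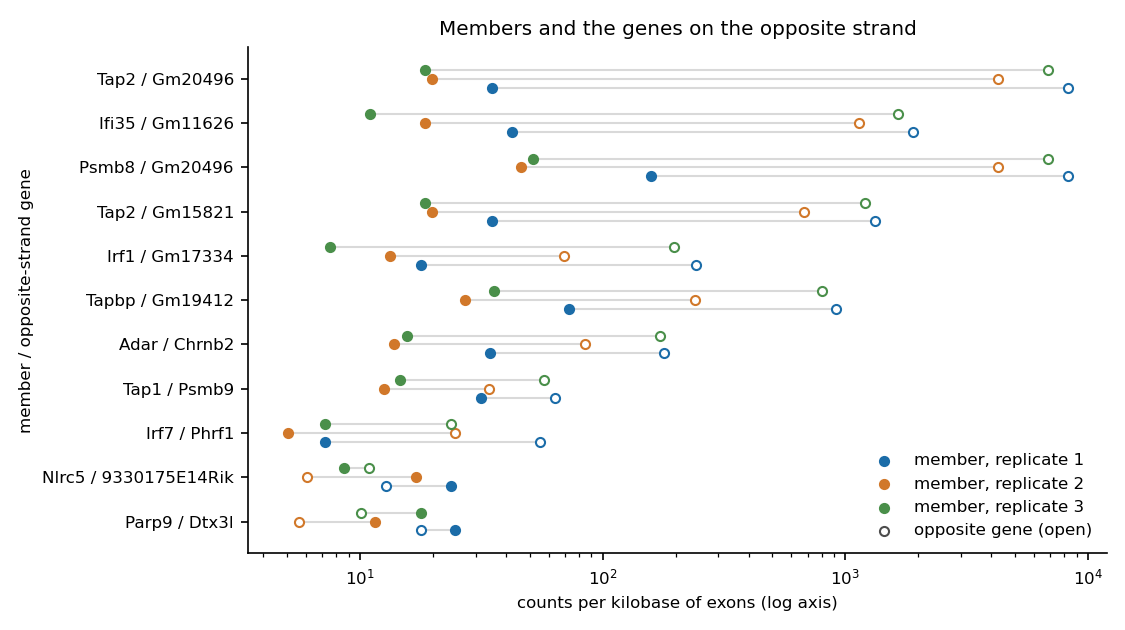
Counts per kilobase of exons (log axis) of members (filled points) and of the opposite-strand genes whose exons they overlap (open points), by library, for the 11 pairs with counts of both genes in every library. Grey lines join the values of a library. Gm20496, Gm15821, Gm11626 and Gm19412 lie 8.92-fold or more above their members in every library, and the Parp9 to Dtx3l pair alone has the first gene higher throughout.

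Replicate error was large for many members. For the 29 members whose mean TPM reached 1, log2(TPM + 1) had a median SD over the 3 libraries of 0.504, close to 0.524 over 9932 protein-coding genes. Of these 29, 19 were lowest in replicate 3, against 67.5% of the protein-coding genes. The share of counts on protein-coding genes was 79.9, 77.3 and 68.1% in replicates 1, 2 and 3, and its part in the lower values of replicate 3 was not tested. When TPM was computed only over genes without opposite-strand exons, 5 of 15 members were lowest in replicate 3, against 46.1% of protein-coding genes on that scale.

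The variance between libraries was also set against that of counting alone, with library sizes scaled by TMM (the trimmed mean of M-values). The ratio exceeded 3 in 18 of 28 members with 30 counts or more, against 70.6% of protein-coding genes with as many. It was highest for B2m (65.9), Psmb9 (31.7) and Irf2 (19.6). It was lowest for Psmb10 (0.0625) and Tap2 (0.641), and was 1.36 for Bst2 and 1.37 for H2-K1. These 4 genes varied little beyond counting once libraries were scaled this way.

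The other genes of the pathway, taken from lists of non-members, were read the same way. Of 10 interferon genes 0 were detected and 8 had 0 counts in every library, including Ifnb1 and Ifna1 (chosen after their values were seen), while Ifng and Ifnk each had 1 count, in replicate 1. Of 14 receptor and JAK-STAT genes 10 were detected, led by the kinases Jak2 (49.2 ± 23.7 TPM, SD, n = 3) and Jak1 (48.0 ± 23.3), the phosphatase Ptpn2 (43.5 ± 20.5) and the kinase Tyk2 (9.66 ± 2.21). The lambda interferon receptor Ifnlr1 was at 0. Stat2, which acts with Irf9, had 38, 2 and 25 counts (1.92 ± 1.44 TPM, SD, n = 3, chosen after its values were seen), below the mean level of each of the 4 member factors.

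Of 18 nucleic acid sensor and adaptor genes 12 were detected, led by Irf5 (542 ± 44.8 TPM, SD, n = 3), which overlaps Tnpo3 on the other strand by 411 bases. Tmem173 (STING), Irf8 and Myd88 followed at 35.2 ± 8.21, 29.8 ± 2.66 and 24.4 ± 10.1 TPM, and Tlr3, Tlr9, Dhx58 and Zbp1 were not detected. On the counted strand Irf5 was thus far above all 4 member factors, with 3218, 2079 and 2655 counts against 658, 277 and 202 for Tnpo3. Irf5 is 1 of 8 genes of its list with opposite-strand exons, and whether its counts come from Irf5 transcripts was not tested. Of 35 other interferon-stimulated genes 8 were detected and 18 were not, 12 of them at 0 counts in every library. The highest were Slfn2, a regulator of T cell quiescence (204 ± 85.7 TPM, SD, n = 3), the GTPase Ifi47 (32.0 ± 10.6), Sp100 (9.95 ± 3.78) and Helz2 (7.56 ± 2.22). This list, like the antiviral members, held both well counted genes and many at 0.

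The class I loading machinery outside the member list was well counted, with 12 of 15 genes detected. The chaperones Calr (665 ± 172 TPM, SD, n = 3), Pdia3 (271 ± 113) and Canx (179 ± 51.8) led it, followed by the nonclassical heavy chain H2-T24 (90.7 ± 31.6), and H2-Q10, Cd1d1 and Mr1 were not detected. The proteasome activator genes Psme1, Psme3 and Psme2 had 272 ± 54.1, 199 ± 60.6 and 157 ± 70.3 TPM. All 3 activator means lay above those of the 3 immunoproteasome subunits. Of 11 class II presentation genes 4 were detected, with the regulators Rfxank (345 ± 33.9 TPM, SD, n = 3, overlapping Nr2c2ap on the other strand by 1341 bases) and Rfxap (12.0 ± 3.08) highest. The class II chain H2-Eb1 had 5.41 ± 2.65 TPM and the invariant chain Cd74 33, 1 and 15 counts. Of the class II genes not detected, the transactivator Ciita had 2, 0 and 3 counts, H2-Ab1 1, 0 and 2, H2-DMb1 0, 0 and 1, and H2-Aa 0 in every library.

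**Figure D5:**
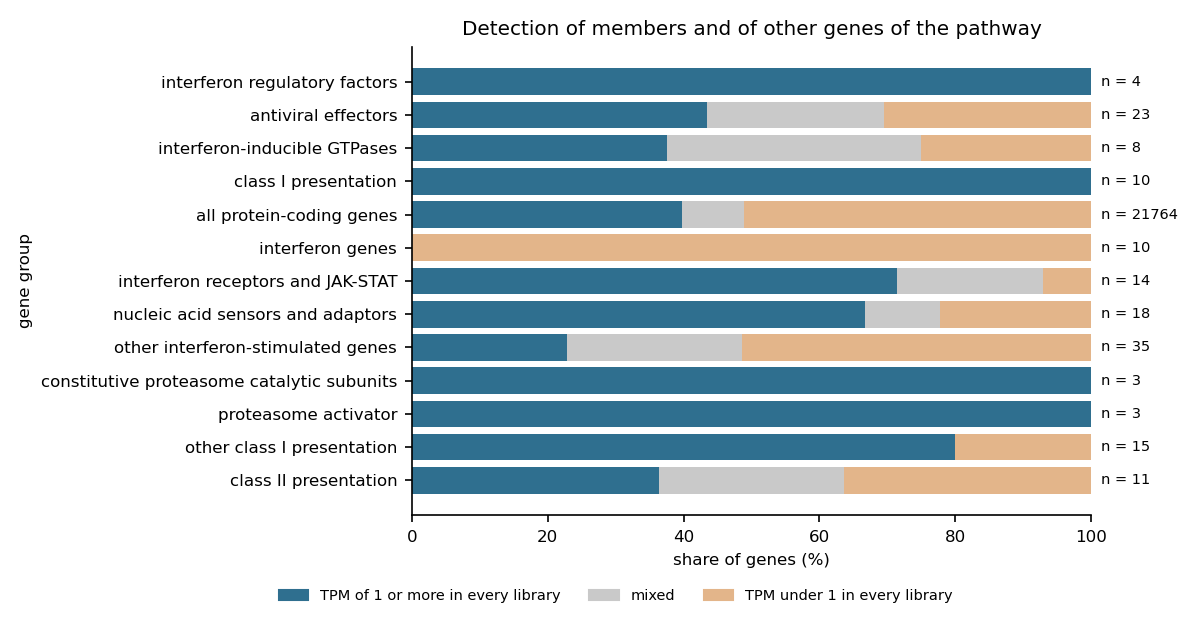
Share of genes (%) detected at a TPM of 1 or more in every library (blue), under 1 in every library (tan) or mixed (grey), for the 4 member classes, all protein-coding genes and 8 lists of other pathway genes, with the number of genes at the right. Class I genes and the proteasome lists are detected throughout, while 0 of 10 interferon genes and 8 of 35 other interferon-stimulated genes are.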

How the data were processed

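The authors deposited raw gene counts beside gene lengths. Per the file headers, read pairs were counted over GENCODE vM13 exons on mm10 by featureCounts (version 1.4.6-p4, strand setting 1). The aligner's version and the kit: not given in the sources used here. TPM was computed here from counts and lengths, and 50376 of 50600 identifiers were named from GENCODE vM21. Overlaps were computed from the deposited exon coordinates. Log values use a pseudocount of 1, pair ratios 0.5 counts, and 0 counts were taken to allow 3, which covers counting error only. With 1 group, no model between conditions was fitted. TMM factors came from edgeR 4.0.16 and size factors from DESeq2 1.42.0 (R 4.3.3). Other work used SciPy 1.17.1, pandas 2.3.3, numpy 2.4.6 and matplotlib 3.10.9 under Python 3.11.15, and the scripts were tested on simulated data.

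The members and lists were chosen with earlier results of these data known. All members and pair genes are named, with the 4 highest and up to 4 lowest undetected genes of each other list, and the opposite gene of largest overlap. Any other gene is marked where it appears. p-values measure only the spread between these libraries. Alternatives were other thresholds, pseudocounts, scalings and filters, and each replicate left out. TPM over genes without opposite-strand exons for class medians, and 30 counts for detection, were added after seeing the data. The result of 1 gene of the other lists is not reported here.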

Additional observations from a re-analysis of the deposited data

How the results depend on the processing

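No paired analysis was possible because there was 1 group. At a TPM limit of 5, 17 members were detected and 21 were not, and 5 receptor and JAK-STAT, 4 other interferon-stimulated and 2 class II genes were detected. Over genes without opposite-strand exons, 16 of the 30 such members were detected. With 30 counts as the limit, 17 members fell short, and leaving out each replicate left 9 to 14 not detected. Class medians moved most. With FPKM scaled by TMM or DESeq2 they were 1.66 and 1.69 (regulatory factors), 0.79 and 0.81 (antiviral) and 3.88 and 3.92 (class I), where protein-coding genes shifted by -0.88 and -0.85. A pseudocount of 0.1 gave 0.60 (antiviral) and -0.36 (GTPases). Members without opposite-strand exons gave 0.27 (antiviral), 0.95 (GTPases, then above antiviral) and 7.90 (class I), and those with a mean TPM of at least 1 gave 3.30 (antiviral) and 1.90 (GTPases). With those members and TPM over genes without opposite-strand exons, which shifted protein-coding genes by 1.58, the medians were 3.66, 0.68, 2.02 and 9.75 for regulatory factors, antiviral effectors, GTPases and class I, with GTPases again above antiviral effectors. Without length scaling, 3 log2 pair ratios changed sign, as that construction changes them by the genes' lengths: 0.84 (Psmb8 to Psmb5), 0.15 (Tap1 to Tap2) and -0.20 (B2m to H2-K1). Low depth limits the members with few counts.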
